A study of Arabidopsis thaliana with 25 samples.

Results

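The 61 genes described here had lower transcript levels in hypoxic than in normoxic Arabidopsis shoots in each of 3 genotypes. They were chosen by that fall: the mean log2 value of the hypoxic shoot arrays had to lie at least 0.7 below that of the normoxic shoot arrays in mpk6, in MPK6ox and in wild type. On a log2 scale a difference of 1 is a 2-fold change. Of 13513 probe sets that carry exactly 1 gene, 70 met this threshold (0.518%), and 9 of them, which belong to a separately named list of 10 growth and auxin genes, were left out. The 61 probe sets that remain stand for 61 different genes, among 22746 probe sets tested in all.

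The samples were 10-day-old seedlings of the Col-0 background, grown on vertical plates with sucrose in long days. The mpk6 line is a T-DNA insertion knockout of the mitogen-activated protein kinase MPK6, the MPK6ox line carries 35s::MPK6, which drives that kinase from a constitutive viral promoter, and the wild type (WT) is Col-0. How many independent lines each transgenic genotype stands for is not given in the sources used here, and MPK6 itself was not analysed here. Hypoxia was given in a chamber flooded with 99.998% argon, and the normoxic controls stood in an open box. The protocol gives 2 h for both treatments and the hypoxic samples' source names give 9 h, so the length of the treatment is uncertain. Roots and shoots were separated after the treatment, and each of the 12 combinations of genotype, organ and treatment has 2 biological replicate arrays, except hypoxic MPK6ox roots with 3.

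In plants without oxygen, respiration stops and energy is scarce, and transcripts of genes for growth, cell wall building and transport commonly decline while a small set of low-oxygen genes rises. Auxin, brassinosteroids and cell wall loosening drive the expansion of young leaves and hypocotyls. All 18 measured genes of a low-oxygen response list rose in shoots and in roots (limma, adjusted p under 0.05). Of all probe sets 3.14% were called higher in hypoxic shoots and 9.50% in hypoxic roots. The list means were 10.69 to 11.22 in hypoxic shoots, against 6.83 to 7.05 in normoxic shoots. This list was chosen with earlier results of these data known, so its rise is a description and no test of the treatment. Markers of the organ were present in shoots: the mean of 9 nuclear photosynthesis genes was 12.84 to 13.00 in hypoxic shoots and 12.80 to 12.99 in normoxic shoots, with none of the 9 passing the test between them. The 3 measured root markers averaged 8.08 to 8.43 in hypoxic shoots and 8.21 to 8.54 in normoxic shoots, and none of them passed the test. That average joins PYK10, at 13.5 in hypoxic and 13.7 in normoxic shoots, with EXPA7 and EXPA18, whose shoot means were 5.4 to 6.0. In whole organs, fewer cells of a type and less RNA per cell cannot be told apart.

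The annotation used here gives a gene name to 8 members, and a synonym in the reference annotation names AT1G08280 as GALT29A. The others carry only a locus code, and no role is stated for them. The 9 with a name fall into auxin and brassinosteroid genes (IAGLU, HAT2, BRH1), cell wall genes (EXLA2, GALT29A) and genes of signalling, trafficking, transport and splicing (MOL1, PRA1.B6, OCT5, STIPL1). The shoot falls of all of them were used in choosing the genes, so they are described without a test.

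Across the 61 genes the mean shoot fall over the 3 genotypes had a median of -1.01 on the log2 scale and ran from -0.76 in AT3G15720 to -1.62 in AT1G08280. In 32 genes the mean fall was at least 2-fold, and in 18 it was at least 2-fold in every genotype. In 50 genes all 6 hypoxic shoot arrays lay below all 6 normoxic shoot arrays, a pattern seen in 3.74% of all tested probe sets, from which nothing can be read because the genes were chosen by the same contrast. The genes just inside the threshold were AT3G06150, AT2G14800 and AT5G66330, with a smallest fall among the genotypes of -0.70, -0.70 and -0.71. The genes just outside it were AT5G64640, AT5G60030 and AT2G14460, with -0.69, -0.68 and -0.68. There is thus no gap at the threshold.

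**Figure D1:**
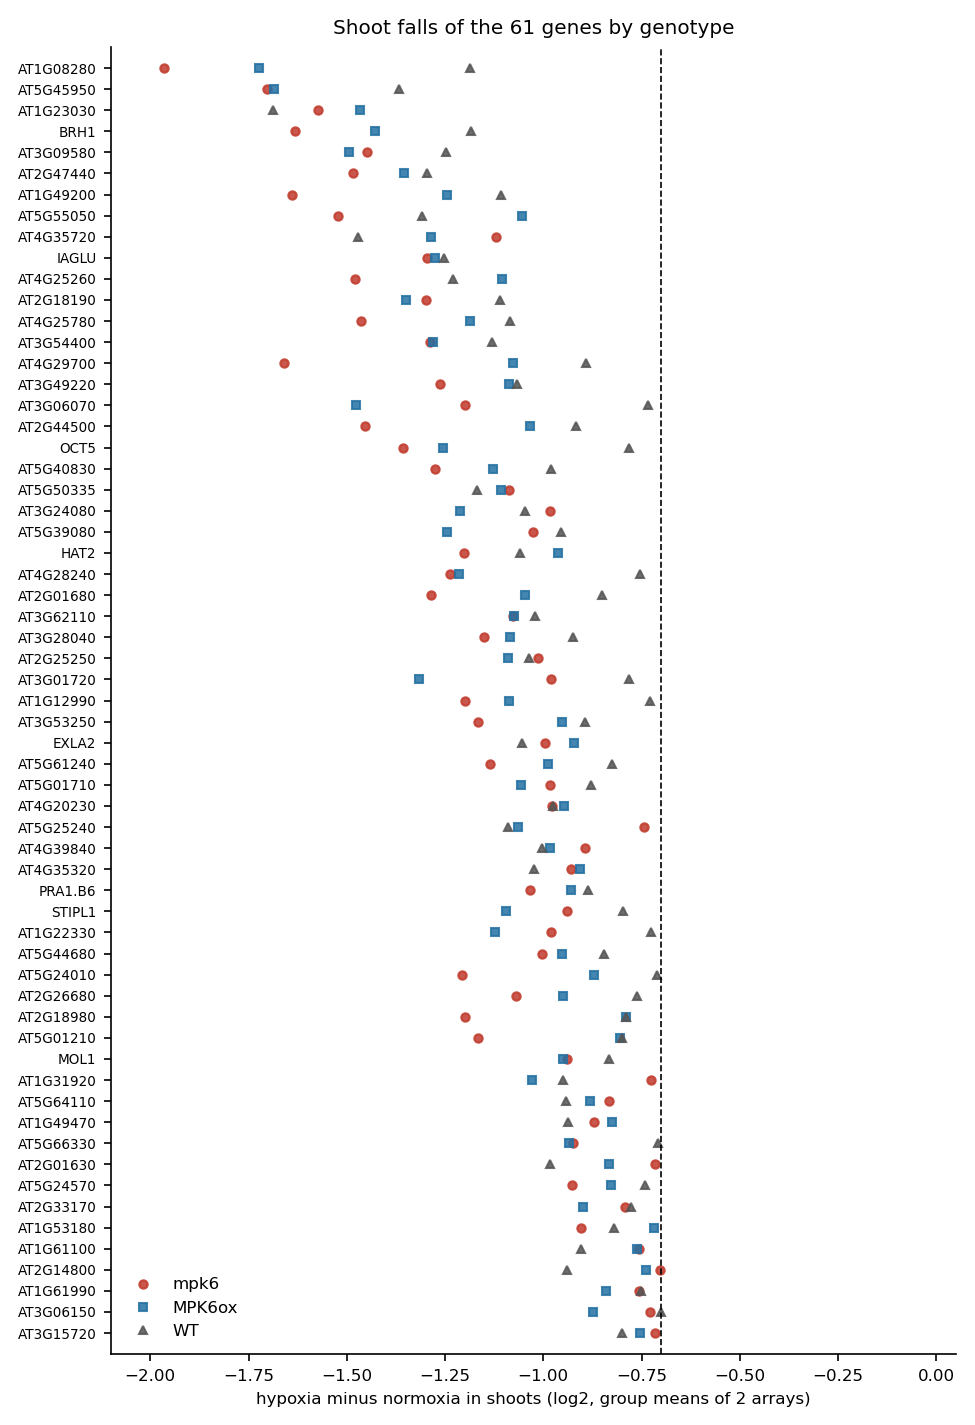
Hypoxia minus normoxia in shoots (horizontal axis, log2, difference of group means of 2 arrays each) for each of the 61 genes (rows, sorted by mean fall), with 1 marker per genotype and the threshold of -0.7 as a line. The mean falls run from -1.62 for AT1G08280 to -0.76 for AT3G15720, and the WT marker is the least negative in 39 of the 61 rows.

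Among the hormone genes, IAGLU encodes an indole-3-acetate glucosyltransferase, which joins auxin to glucose and so takes it out of the active pool. Its log2 values were 8.39 and 9.17 in hypoxic mpk6 shoots, 8.02 and 9.33 in hypoxic MPK6ox shoots and 7.88 and 9.06 in hypoxic WT shoots, against 9.91 and 10.23, 9.76 and 10.14, and 9.50 and 9.94 in the normoxic shoots of the same genotypes. Every hypoxic array lay below every normoxic array, the mean fall was -1.27, or 2.42-fold, and the 3 genotypes were nearly level at -1.30 in mpk6, -1.28 in MPK6ox and -1.25 in WT.

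HAT2, an auxin-inducible homeodomain-leucine zipper transcription factor, read 9.24 and 8.28 in hypoxic mpk6 shoots, 8.91 and 8.26 in hypoxic MPK6ox shoots and 9.50 and 8.32 in hypoxic WT shoots. The normoxic values were 10.12 and 9.80 in mpk6, 9.68 and 9.42 in MPK6ox and 10.09 and 9.85 in WT shoots. The fall averaged -1.07, but the groups overlapped, because 1 hypoxic WT array, at 9.50, stood above the lower normoxic MPK6ox array at 9.42.

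BRH1 encodes a RING-H2 protein named for its response to brassinosteroids. It stood at 8.99 and 8.58 in hypoxic mpk6, 9.19 and 8.61 in hypoxic MPK6ox and 9.93 and 8.66 in hypoxic WT shoots, against normoxic values of 10.12 and 10.71 in mpk6, 10.25 and 10.41 in MPK6ox and 10.33 and 10.62 in WT shoots. The groups did not overlap and the mean fall was 2.67-fold, with the first hypoxic WT array the nearest to the normoxic arrays.

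Of the cell wall genes, EXLA2 encodes an expansin-like protein. Hypoxic shoots had 6.41 and 6.76 in mpk6, 6.39 and 6.60 in MPK6ox and 6.95 and 6.46 in WT, against 7.56 and 7.61, 7.19 and 7.64, and 7.63 and 7.89 in the normoxic shoots of these genotypes. All hypoxic arrays were lower, by 0.99 on the log2 scale in the mean.

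GALT29A (AT1G08280), a galactosyltransferase that extends the sugar chains of arabinogalactan proteins, had the largest mean fall of all 61 genes. Its values were 6.56 and 5.73 in hypoxic mpk6 shoots, 6.51 and 5.77 in hypoxic MPK6ox shoots and 6.84 and 6.38 in hypoxic WT shoots, against 8.13 and 8.09, 7.86 and 7.87, and 7.77 and 7.82 in normoxic shoots. The normoxic arrays were tight and far above the hypoxic ones, a mean fall of -1.62 or 3.08-fold. It also had the widest spread between genotypes, a range of 0.78, with falls of -1.96 in mpk6, -1.72 in MPK6ox and -1.19 in WT.

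MOL1 encodes a leucine-rich repeat receptor-like kinase that restrains cambium activity. It had 7.05 and 6.74 in hypoxic mpk6, 7.12 and 6.83 in hypoxic MPK6ox and 7.16 and 6.89 in hypoxic WT shoots, against 7.91 and 7.76, 7.77 and 8.08, and 7.79 and 7.93 in normoxic shoots. The arrays of a group were close together and the groups did not overlap, with a mean fall of 1.88-fold.

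PRA1.B6, a prenylated RAB acceptor of the membrane trafficking machinery, had 8.22 and 7.45 in hypoxic mpk6, 8.10 and 7.52 in hypoxic MPK6ox and 8.44 and 7.69 in hypoxic WT shoots. Normoxic shoots gave 8.86 and 8.88 in mpk6, 8.67 and 8.80 in MPK6ox and 8.80 and 9.10 in WT. In each genotype the first hypoxic array lay above the second by 0.57 to 0.77, and still below all normoxic arrays.

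OCT5, a transporter of the organic cation and carnitine family, stood at 6.80 and 6.59 in hypoxic mpk6, 6.75 and 6.58 in hypoxic MPK6ox and 7.13 and 6.87 in hypoxic WT shoots, against 8.06 and 8.04, 7.87 and 7.97, and 7.40 and 8.16 in normoxic shoots. The fall was 2.19-fold in the mean, and in WT it was the 2 normoxic arrays that were far apart.

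STIPL1 encodes a splicing factor that also affects the circadian clock. Its hypoxic values were 7.04 and 6.80 in mpk6, 7.00 and 6.74 in MPK6ox and 7.42 and 7.00 in WT shoots, against 7.79 and 7.94, 8.03 and 7.91, and 7.95 and 8.05 in normoxic shoots. The normoxic arrays spanned only 7.79 to 8.05, and the mean fall was 1.92-fold.

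**Figure D2:**
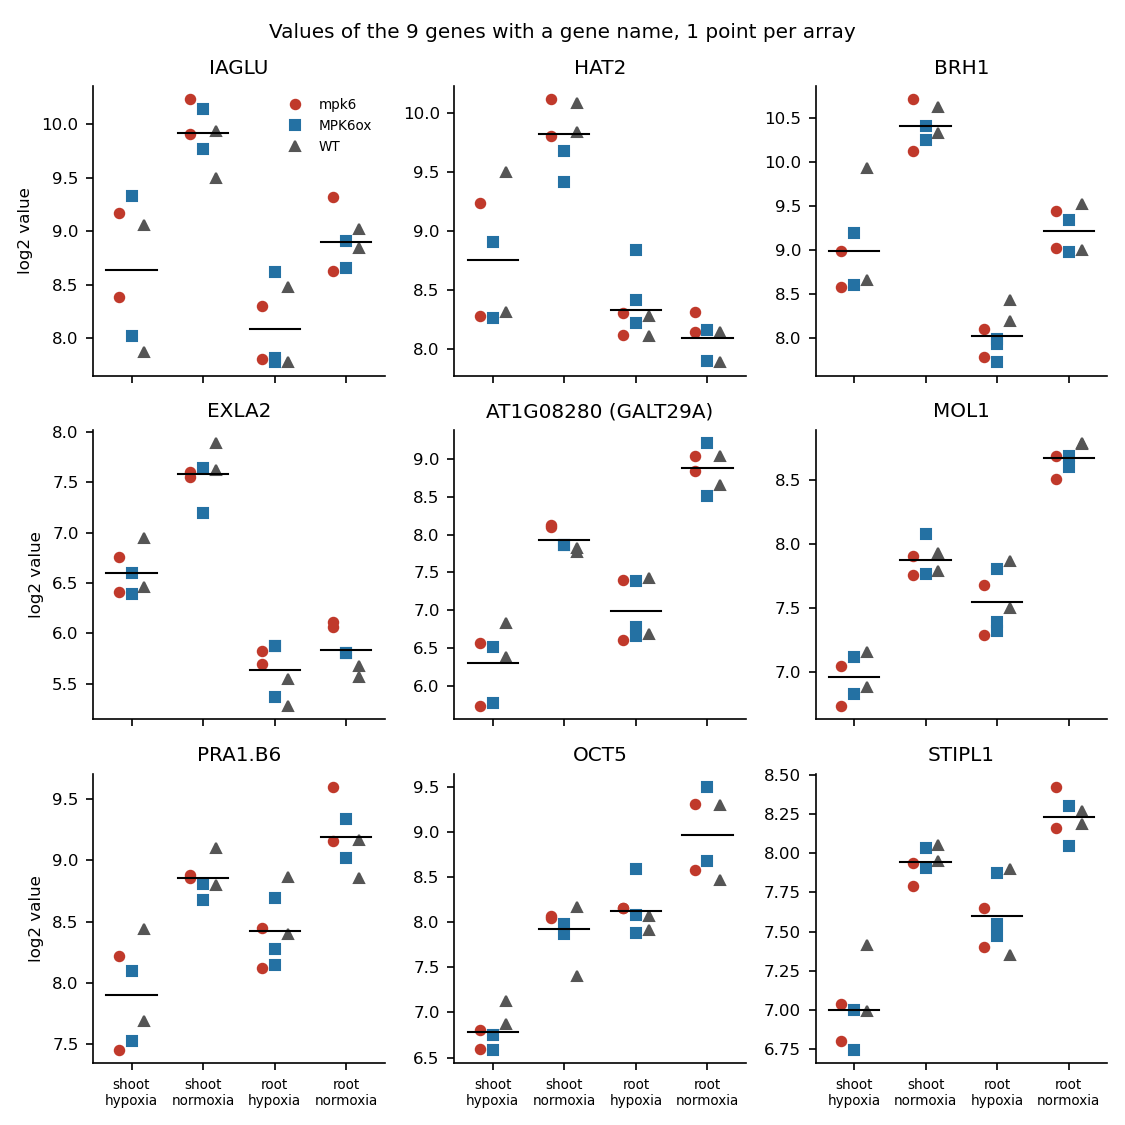
Log2 values of 9 named genes in every array (vertical axes), for hypoxic and normoxic shoots and hypoxic and normoxic roots, with 1 marker per array and the genotype as marker shape and colour. In shoots all hypoxic arrays lie below all normoxic arrays for each gene except HAT2, and in roots the treatments overlap for HAT2, EXLA2, PRA1.B6 and OCT5.

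The other members with the largest falls carry only a locus code. AT5G45950 had 8.54 and 6.79 in hypoxic mpk6 shoots, 8.55 and 6.68 in hypoxic MPK6ox shoots and 9.12 and 7.34 in hypoxic WT shoots, against 9.57 and 9.17, 9.50 and 9.09, and 9.65 and 9.55 in normoxic shoots. Its mean fall was -1.59, yet in every genotype the first hypoxic array was over 1.7 above the second, and 1 hypoxic WT array overlapped the normoxic range by a small margin, at 9.12 against 9.09. AT1G23030 had 7.64 and 7.14 in hypoxic mpk6, 8.04 and 6.94 in hypoxic MPK6ox and 7.92 and 6.88 in hypoxic WT shoots, against 9.01 and 8.91, 9.10 and 8.81, and 9.18 and 9.00 in normoxic shoots. It fell by 1.58 in the mean and its largest fall was in WT, at -1.69.

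AT3G09580 had 6.79 and 6.50 in hypoxic mpk6, 6.72 and 6.28 in hypoxic MPK6ox and 7.32 and 6.56 in hypoxic WT shoots, against 7.93 and 8.26, 7.91 and 8.08, and 7.95 and 8.43 in normoxic shoots. AT2G47440 had 9.22 and 9.25 in hypoxic mpk6, 9.56 and 9.11 in hypoxic MPK6ox and 9.95 and 9.23 in hypoxic WT shoots, against 10.46 and 10.98, 10.49 and 10.88, and 10.71 and 11.06 in normoxic shoots. AT1G49200 had 5.74 and 5.56 in hypoxic mpk6, 6.18 and 6.04 in hypoxic MPK6ox and 6.63 and 5.57 in hypoxic WT shoots, against 6.84 and 7.75, 7.10 and 7.61, and 6.99 and 7.43 in normoxic shoots. In all 3 genes the groups were fully apart, with mean falls of -1.40, -1.38 and -1.33, and the first hypoxic WT array was the highest hypoxic one.

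AT5G55050 had 5.61 and 5.86 in hypoxic mpk6, 5.04 and 5.28 in hypoxic MPK6ox and 5.25 and 5.75 in hypoxic WT shoots, against 6.79 and 7.73, 5.97 and 6.45, and 6.80 and 6.83 in normoxic shoots. AT4G35720 had 6.25 and 7.27 in hypoxic mpk6, 6.26 and 6.94 in hypoxic MPK6ox and 6.17 and 7.05 in hypoxic WT shoots, against 7.61 and 8.14, 7.80 and 7.98, and 7.88 and 8.28 in normoxic shoots. Both fell 2.45-fold in the mean without overlap, and both, like IAGLU, were lower in the first than in the second hypoxic array of every genotype. The 45 members for which single shoot arrays are not given had mean falls between -0.76 and -1.27.

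The falls of the 3 genotypes are set side by side without a test. The median change over the 61 genes was -1.09 in mpk6, -1.06 in MPK6ox and -0.94 in WT, while the medians over all tested probe sets were 0.01, -0.01 and -0.02. A fall of at least 2-fold was found for 37 genes in mpk6, 35 in MPK6ox and 24 in WT. For a single gene the range over the genotypes had a median of 0.24. The smaller WT falls went with 1 array: the mean over the 61 genes was 7.54 in the first hypoxic WT shoot array, against 6.99 to 7.27 in the other 5 hypoxic shoot arrays and 8.17 to 8.37 in the normoxic shoot arrays. With the first hypoxic array alone the median changes were -0.98 in mpk6, -0.93 in MPK6ox and -0.65 in WT, and with the second alone they were -1.17, -1.20 and -1.17.

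The choice of genes rests on the same array. Without the first hypoxic WT shoot array the rule gave 83 genes, 58 of them among the 61, and without the second it gave 28 genes, 27 of them among the 61. In hypoxic shoots the values went with the replicate number: in 38 of the 61 genes the first array was above the second in all 3 genotypes, against 23.6% of all probe sets, and in 9 it was below, against 20.6%. In normoxic shoots 13 genes were higher in the first array of all genotypes and 29 were lower, with 26.6% and 24.9% of all probe sets. The largest such differences were those of AT5G45950, at 1.75 in mpk6, 1.87 in MPK6ox and 1.79 in WT, and of AT4G28240, at 1.34, 1.66 and 1.69. The opposite order was largest in IAGLU, at -0.78, -1.31 and -1.18, and in AT1G53180, at -1.18, -1.05 and -0.86. What the numbers stand for beyond a biological replicate is not stated in the labels.

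**Figure D3:**
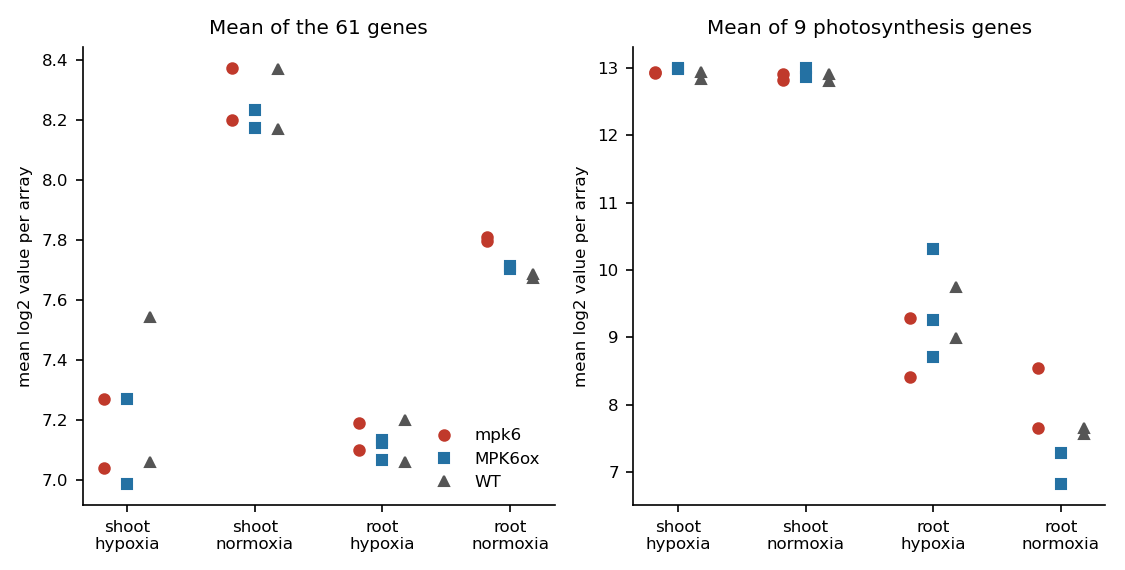
Mean log2 value per array (vertical axes) of the 61 genes (left) and of 9 nuclear photosynthesis genes (right), for hypoxic and normoxic shoots and roots, with 1 marker per array and the genotype as marker shape and colour. The 61 genes average 6.99 to 7.54 in hypoxic shoots against 8.17 to 8.37 in normoxic shoots, and 7.06 to 7.20 in hypoxic roots against 7.67 to 7.81 in normoxic roots, and the photosynthesis mean is 8.42 to 10.31 in hypoxic roots against 6.82 to 8.55 in normoxic roots.

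Whether the same genes fell in roots was tested on arrays that played no part in choosing them, with limma over all 22746 probe sets and Benjamini-Hochberg adjustment. Averaged over the genotypes, 37 of the 61 genes (60.7%) were lower in hypoxic roots at an adjusted p under 0.05, where 14.8% of all probe sets were lower. AT3G49220 and AT5G64110 were higher, where 9.50% of all probe sets were higher, and 22 genes were not called. The 61 genes had a median level of 7.98 in normoxic shoots, against 6.48 for all probe sets with 1 gene. No background share was counted for probe sets of a like level. The median root change was -0.64 over the 61 genes and 0.01 over all probe sets. In this fit the fall was thus not confined to shoots for these 37 genes, and in 10 of them the root fall was larger than the mean shoot fall. Hypoxic and normoxic roots also differed in photosynthesis genes and root markers. With the photosynthesis mean of the root arrays in the model, 7 of the 37 falls passed the test, as described below.

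Separately by genotype, 13 genes were lower in hypoxic WT roots (3.95% of all probe sets) and none was higher (2.55%). Of the 61 genes 22 were lower in mpk6 roots (6.30%) and 22 in MPK6ox roots (5.49%). AT3G49220 was higher in mpk6 roots, where 3.71% of all probe sets were higher, and AT5G64110 in MPK6ox roots, where 4.28% were higher. These counts per genotype rest on few arrays: in WT the calls in either direction numbered 7 without the first normoxic and 6 without the second hypoxic root array, in mpk6 11 to 15 without any 1 of its 4 root arrays, and in MPK6ox 13 without either normoxic root array. The 13 genes lower in WT were lower in all 3 genotypes: AT1G08280, AT1G23030, AT1G49200, AT1G49470, AT1G61990, AT2G18980, AT3G01720, AT4G20230, AT4G29700, AT5G01210, AT5G24010, AT5G55050 and MOL1. In 43 genes the root change was negative in every genotype, whether called or not, and in 6 it was positive in every genotype. The shares of all probe sets called lower, or of the same sign, in all 3 genotypes were not counted, so nothing is read from these counts. The threshold used for shoots, applied to roots, was met by 19 of the 61 genes (31.1%) and by 295 of the 13513 probe sets with 1 gene (2.18%).

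AT5G01210 fell most in roots. It ranged from 7.14 to 8.29 with a median of 8.14 in the 7 hypoxic root arrays, against 10.16 to 10.86 with a median of 10.42 in the 6 normoxic ones. The groups were far apart, and the change was -2.57 ± 0.20 (SE), or 5.93-fold, with a limma adjusted p of 6.41e-08. Its shoot fall was much smaller, at -0.92. AT1G49470 had 8.29 to 9.10 (median 8.62) in hypoxic roots and 10.62 to 11.17 (median 10.72) in normoxic roots, a 4.26-fold fall (adjusted p = 2.92e-09, limma). AT4G29700 had 7.52 to 8.77 (median 7.84) in hypoxic roots and 9.63 to 10.51 (median 9.94) in normoxic roots, a 4.12-fold fall (adjusted p = 4.81e-06, limma). In both genes the treatments did not overlap in roots.

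GALT29A combined a large fall in both organs. Its root values were 6.61 to 7.43 with a median of 6.78 under hypoxia, against 8.51 to 9.21 with a median of 8.94 in normoxia, a change of -1.89 ± 0.20 (SE, limma adjusted p = 2.32e-06). Its fall was thus 3.08-fold in shoots and 3.69-fold in roots. BRH1 had 7.72 to 8.43 (median 7.99) in hypoxic and 8.97 to 9.52 (median 9.18) in normoxic roots and fell by 1.17 ± 0.19 (adjusted p = 0.000156, limma). MOL1 had 7.29 to 7.87 (median 7.50) in hypoxic and 8.50 to 8.79 (median 8.68) in normoxic roots and fell by 1.11 ± 0.11 (adjusted p = 7.49e-07, limma). These 3 genes had no overlap between treatments in either organ.

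Smaller root falls were found for the other named genes of signalling, transport, trafficking and splicing. OCT5 had 7.88 to 8.59 (median 8.08) in hypoxic and 8.47 to 9.50 (median 8.99) in normoxic roots, overlapping groups with a change of -0.86 ± 0.18 (adjusted p = 0.00185, limma). PRA1.B6 had 8.12 to 8.86 (median 8.40) in hypoxic and 8.85 to 9.60 (median 9.16) in normoxic roots, with a change of -0.76 ± 0.16 (adjusted p = 0.00245, limma). STIPL1 had 7.35 to 7.90 (median 7.55) in hypoxic and 8.05 to 8.42 (median 8.23) in normoxic roots, with a change of -0.64 ± 0.11 (adjusted p = 0.000298, limma). Only STIPL1 of these 3 had root groups that did not overlap.

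Of the auxin genes IAGLU passed the test in roots and HAT2 did not, and the difference between them was not tested. IAGLU had 7.77 to 8.62 (median 7.82) in hypoxic and 8.63 to 9.32 (median 8.88) in normoxic roots and fell by 0.81 ± 0.25 (adjusted p = 0.025, limma). The IAGLU call was lost in 6 of 34 other settings, among them the mean of WT and mpk6 roots without MPK6ox. HAT2 had 8.11 to 8.84 (median 8.28) in hypoxic and 7.89 to 8.31 (median 8.15) in normoxic roots, a change of 0.21 ± 0.19 that did not pass the test (adjusted p = 0.471, limma). The expansin-like gene EXLA2 did not pass it either, with 5.27 to 5.88 (median 5.69) in hypoxic and 5.56 to 6.11 (median 5.80) in normoxic roots and a change of -0.21 ± 0.11 (adjusted p = 0.193, limma). For HAT2 and EXLA2 the shoot falls of -1.07 and -0.99 thus stood beside root changes within the spread of the arrays.

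Both genes that rose in roots carry only a locus code in the annotation used here, and their roles are not stated. AT3G49220 had 10.19 to 10.99 (median 10.72) in hypoxic roots and 9.94 to 10.12 (median 10.02) in normoxic roots, where no array overlapped, and rose by 0.67 ± 0.12 (adjusted p = 0.000401, limma). In shoots its 6 hypoxic arrays lay at 10.23 to 10.75 and its normoxic ones at 11.21 to 11.83, again without overlap but in the opposite order. AT5G64110 had 6.48 to 7.77 (median 6.93) in hypoxic and 6.18 to 6.79 (median 6.35) in normoxic roots and rose by 0.56 ± 0.13 (adjusted p = 0.00319, limma). This rise was largest in MPK6ox, at 0.92, with 0.32 in mpk6 and 0.43 in WT, and it was not called in the mean of mpk6 and WT roots alone.

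**Figure D4:**
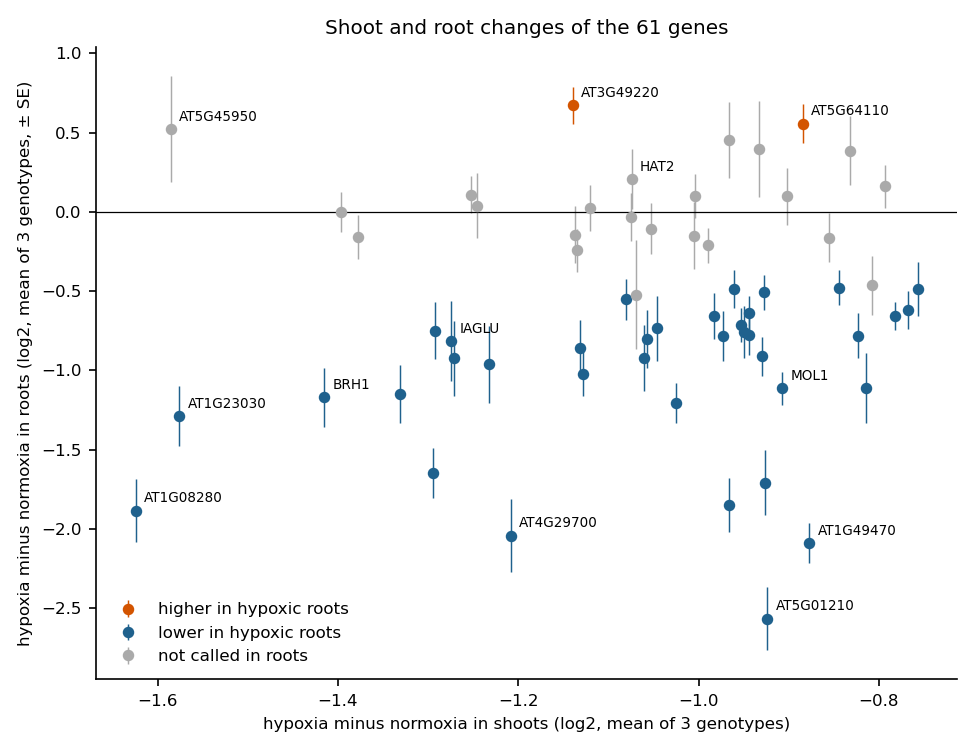
Hypoxia minus normoxia in roots (vertical axis, log2, mean of 3 genotypes, bars ± SE) against the same difference in shoots (horizontal axis, log2) for the 61 genes, coloured by the limma call in roots (37 lower, 2 higher, 22 not called). Root changes run from -2.57 to 0.67 and shoot falls only from -1.62 to -0.76, because the genes were chosen on the shoot axis.

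The remaining genes lower in roots, with changes from -0.48 in AT2G01630 to -1.85 in AT4G20230, were AT1G22330, AT1G23030, AT1G49200, AT1G53180, AT1G61990, AT2G01630, AT2G01680, AT2G18980, AT2G25250, AT2G26680, AT2G33170, AT3G01720, AT3G06150, AT3G15720, AT3G24080, AT3G54400, AT3G62110, AT4G20230, AT4G25260, AT4G35320, AT4G35720, AT4G39840, AT5G01710, AT5G24010, AT5G40830, AT5G55050 and AT5G61240. Of the 61 genes, 30 had all hypoxic root arrays below all normoxic ones, which 5.86% of all probe sets had. All 30 are among the 37 called lower on the same arrays, so their separation adds no support to those calls. The root call of AT3G15720 was lost in 18 of 34 other settings. A second probe set with AT1G22330 as its gene gave mean changes of -0.42 in shoots and -0.66 in roots, beside -0.94 and -0.78 for the one among the 61.

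The genes not called in roots besides HAT2 and EXLA2 were AT1G12990, AT1G31920, AT1G61100, AT2G14800, AT2G18190, AT2G44500, AT2G47440, AT3G06070, AT3G09580, AT3G28040, AT3G53250, AT4G25780, AT4G28240, AT5G24570, AT5G25240, AT5G39080, AT5G44680, AT5G45950, AT5G50335 and AT5G66330. With HAT2 and EXLA2 their median change was -1.06 in shoots and 0.01 in roots, and the 37 that fell in roots had medians of -0.97 in shoots and -0.86 in roots. AT3G09580 is an example: it had 5.28 to 5.65 (median 5.49) in hypoxic and 5.36 to 5.63 (median 5.51) in normoxic roots, with an adjusted p of 0.992 (limma), beside a 2.63-fold fall in shoots. Its root values all lay below its lowest hypoxic shoot value of 6.28, and a low value leaves less room for a measurable fall. A gene that did not pass the test in roots is not shown to be unchanged there.

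Hypoxic and normoxic roots also differed in other respects. The mean of 9 nuclear photosynthesis genes was 8.42 to 10.31 in hypoxic roots, against 6.82 to 8.55 in normoxic roots, and 8 of the 9 were called higher. The 3 root markers were called lower, with means of 9.50 to 10.20 in hypoxic roots and 11.09 to 11.72 in normoxic roots. Their changes were unequal, at -2.37 in EXPA18, -2.08 in EXPA7 and -0.32 in PYK10. With the photosynthesis mean of each root array added to the model, a setting chosen after the data were seen, all 37 root falls stayed negative and 7 of them passed the test: AT1G49470, AT4G20230, AT4G25260, AT5G01210, AT5G55050, IAGLU and MOL1. The median change of the 37 genes was -0.73 with the term and -0.86 without it, and their median standard error was 0.35 with it and 0.16 without it. Over all probe sets 5.10% were called in either direction with the term and 24.3% without it.

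The genes were split in the organ in which they stood higher, by the mean over treatments and genotypes in the same limma fit and adjustment. A gene had to be measurable in shoots to fall there by 0.7, and the same shoot arrays chose the genes, so the share higher in shoots is partly set by the choice and is given as a description. Higher levels in shoots than in roots were called for 33 genes (54.1%), where 29.9% of all probe sets were higher in shoots, and higher levels in roots for 18 genes (29.5%), where 34.3% of all probe sets were higher in roots. The other 10 were not called.

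AT5G44680 had the largest shoot excess, with log2 values of 9.41 to 10.47 (median 9.83) in hypoxic shoots and 10.67 to 11.05 (median 10.83) in normoxic shoots, against 5.22 to 7.64 (median 6.24) in hypoxic roots and 5.34 to 6.03 (median 5.75) in normoxic roots. Shoots were 21.5-fold above roots, a difference of 4.43 ± 0.22 (SE, limma adjusted p = 4.85e-12). AT5G45950 followed at 11.2-fold (adjusted p = 6.17e-10, limma) and AT3G28040 at 6.35-fold (adjusted p = 8.63e-13, limma). None of these 3 was called in hypoxic roots.

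At the other end stood AT2G18980, with 5.32 to 7.05 (median 6.29) in hypoxic shoots and 6.21 to 8.28 (median 7.20) in normoxic shoots, against 9.24 to 10.44 (median 9.90) in hypoxic roots and 11.34 to 12.05 (median 11.63) in normoxic roots. Its shoot minus root difference was -4.05 ± 0.15 (SE, limma adjusted p = 9.25e-14), and its root fall of 1.71 ± 0.21 (SE, limma adjusted p = 1.11e-05) exceeded its mean shoot fall of -0.93. AT4G29700 was 10.7-fold higher in roots (adjusted p = 3.51e-12, limma) and AT4G20230 was 4.61-fold higher in roots (adjusted p = 2.23e-11, limma), and these also fell more in roots than in shoots. Of the named genes IAGLU, HAT2, BRH1 and EXLA2 were higher in shoots, by 0.79, 1.09, 1.07 and 1.36. GALT29A, MOL1, PRA1.B6, OCT5 and STIPL1 were higher in roots, with shoot minus root differences of -0.83, -0.70, -0.43, -1.19 and -0.44.

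The root calls were counted by the organ of the higher level. The same counts over all probe sets were not made, so no pattern particular to these genes is read from the counts. Of the 18 genes higher in roots, 17 fell in hypoxic roots and AT2G44500 was not called. Of the 33 higher in shoots, 13 fell in roots, AT3G49220 rose and 19 were not called. Of the 10 with no organ call, 7 fell, AT5G64110 rose, and AT2G14800 and AT4G28240 were not called. Over the 61 genes the shoot minus root difference and the root change had a Pearson correlation of 0.64 and a Spearman correlation of 0.58, given as a description, since both measures share the root arrays and the genes are not independent. The deposited values in normoxic roots also moved with the calls, with a median of 8.76 for the 37 genes that fell and 6.04 for the 22 not called, and a low value leaves less room for a measurable fall. Its part in these counts was not tested.

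**Figure D5:**
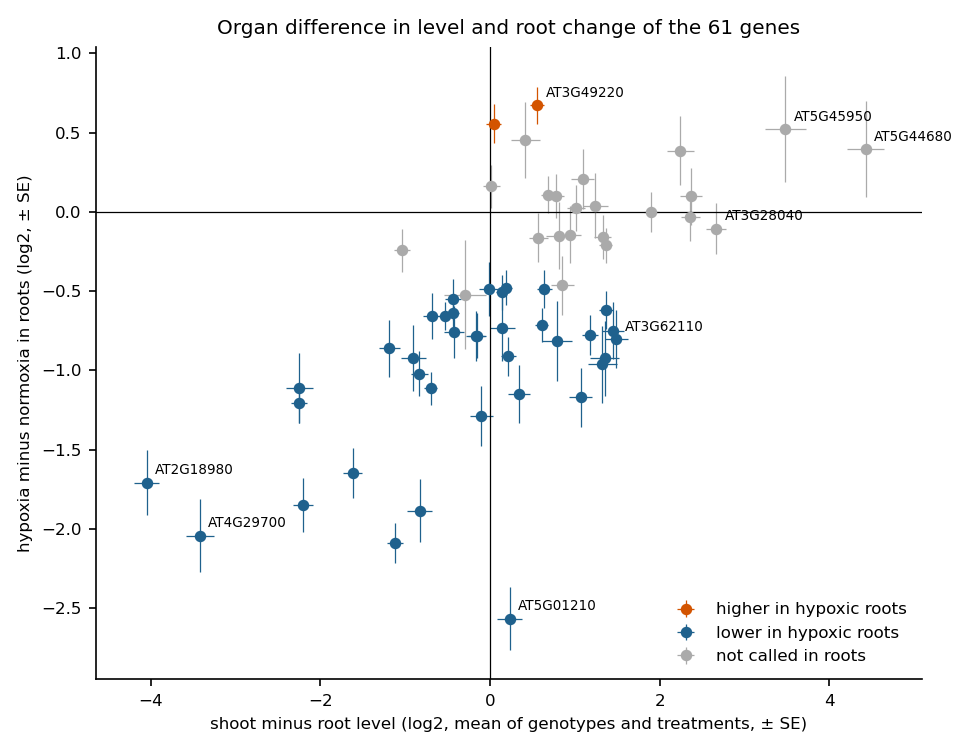
Hypoxia minus normoxia in roots (vertical axis, log2, bars ± SE) against the shoot minus root difference in level (horizontal axis, log2, mean of genotypes and treatments, bars ± SE) for the 61 genes, coloured by the limma call in roots. Genes called higher in roots, to the left of 0, are called lower in hypoxic roots in 17 of 18 cases, and the genes with the largest shoot excess, up to 4.43, are not called in roots. The same count over all probe sets was not made.

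Whether MPK6 dosage altered the level of these genes was asked with each line against WT, averaged over the treatments within an organ. None of the 61 genes was called in mpk6 shoots (background 0.0264%), MPK6ox shoots (1.64%), mpk6 roots (0.585%) or MPK6ox roots (0.945%) with limma, and at an unadjusted p under 0.05 there were 0, 2, 3 and 2 genes. The difference of the root hypoxia effect between a line and WT was also called for none of them, with 0 genes at an unadjusted p under 0.05 for mpk6 and 0 for MPK6ox (background 0.00% for both). The same difference in shoots is not tested here, since the shoot falls chose the genes.

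The nearest to a call was AT2G18980 in shoots. Its values were 5.32 and 5.89 in hypoxic MPK6ox shoots and 6.21 and 6.58 in normoxic MPK6ox shoots, against 6.74 and 6.54 in hypoxic WT shoots and 7.18 and 7.68 in normoxic WT shoots. In each treatment both MPK6ox arrays lay below both WT arrays, and the difference was -1.03 ± 0.26 (SE) with an adjusted p of 0.0605 (limma), which did not pass. Over 32 other settings its adjusted p ran from 0.0212 to 0.29 and it passed in 10. AT5G64110 was higher in MPK6ox than in WT roots by 0.56 ± 0.15 (adjusted p = 0.12, limma), and passed in 2 of 33 other settings. In mpk6 roots AT5G55050 was 0.67 ± 0.20 above WT (adjusted p = 0.176, limma), AT1G23030 by 0.62 ± 0.24 (adjusted p = 0.36, limma) and EXLA2 by 0.41 ± 0.14 (adjusted p = 0.282, limma).

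The auxin and cell wall lists hold genes beyond the members. They are not complete: IAGLU, GALT29A and BRH1, grouped above with auxin, cell wall and brassinosteroid genes, are on none of the lists used here. Because the members and the genes left out by the rule were set apart for their shoot falls, the counts among the others are a description from which no contrast with the members is read. Of 18 measured genes on the auxin list, HAT2 is a member, and IAA29 and WAG2 are among the growth genes left out by the rule. Of the other 15 on that list none was called lower in hypoxic shoots and 1, ARL, was called higher (1.00, adjusted p = 0.000451, limma), with 5.28% of all probe sets lower and 3.14% higher. The median shoot change of these 15 was -0.09. Of 30 measured genes on the cell wall list, EXLA2 is a member and EXO and EXPA16 were left out by the rule. Among the other 27, XTH33 was called lower (-0.81, adjusted p = 2.91e-05, limma) and XTH18 higher (1.16, adjusted p = 0.00256, limma), with a median of -0.02. Both encode xyloglucan endotransglucosylase/hydrolases, which cut and rejoin the xyloglucan of the wall. In roots 13 of the same 27 wall genes were called lower, where 14.8% of all probe sets were, and 1 higher, where 9.50% were.

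Of 4 brassinosteroid and gibberellin genes the gibberellin receptors GID1A and GID1B were called higher in hypoxic shoots, by 1.60 and 0.53 (adjusted p = 6.4e-05 and 0.0453, limma), and none was called lower. The 4 measured genes of the cell cycle list all encode histone H2B, and none of them was called in shoots. None of 3 light and clock genes was called in shoots either. In roots, where the 61 genes had 2 called higher, 37 lower and 22 not called with a median change of -0.64, the 10 growth and auxin genes left out by the rule had 3 called higher, 2 lower and 5 not called with a median of 0.17. No test of this difference between the lists was made.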

How the data were processed

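Affymetrix ATH1 arrays were hybridised with RNA of 13 root and 12 shoot samples after a 2-cycle labelling, per the labels' protocols. The authors deposited 1 table of log2 values, and the submitters' processing notes name RMA without a version. They run from 3.60 to 15.1, the array medians from 6.87 to 7.07, and replicate arrays correlate at 0.982 to 0.992. Signal over background was not assessed, so folds are ratios of the deposited values, and 2 or 3 arrays per group limit the precision.

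Of 22810 probe sets, 64 controls were left out and 22746 tested. A single gene is listed for 13513 of them and more than 1 for 503, and 8730 have no gene in the list used. Of those with 1 gene, 13436 were found in TAIR10.1 by gene ID and 77 kept the listed symbol.

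A model of 12 group means was fitted with limma 3.58.1 (R 4.3.3) over all 25 arrays (13 residual and 3.41 prior degrees of freedom), two-sided, with Benjamini-Hochberg adjustment within a comparison and calls at an adjusted p under 0.05. The members' shoot hypoxia changes were only described, and list genes that are no members were tested there. On simulated data for the root comparison over 22746 probe sets, 74 of 100 changes of -0.7 and 97 of 100 of -1.4 were called, and 14 of 22546 unchanged probe sets. Tables and figures used Python 3.11.15 and matplotlib 3.10.9.

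The members and lists were chosen with earlier results of these data known. By rule, values in every shoot array are given for the 10 largest mean falls and for members with a described role, members called in a test may be named with values up to 12 per comparison, and other genes only if they belong to a list and are called in shoots, or are the 3 just outside the threshold. Alternatives changed the model, the scaling, the filter on dim probe sets, the rule's threshold and the arrays used. No sequences are shown.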

Additional observations from a re-analysis of the deposited data

Results flagged for a closer look

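AT3G49220 moved in opposite directions in the 2 organs: every hypoxic shoot array lay below every normoxic shoot array and every hypoxic root array above every normoxic root array. Its root change was 0.67 ± 0.12 (SE, limma adjusted p = 0.000401), with 0.81 in mpk6, 0.57 in MPK6ox and 0.63 in WT, beside a mean shoot fall of -1.14. The difference between the organs was not tested, because the shoot fall was what put the gene among the 61. No group has enough arrays for a check of single arrays that stand apart.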

How the results depend on the processing

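The photosynthesis mean of the root arrays as a term, a setting added after seeing the data, lowered the counts of members called in hypoxic roots: the calls in the mean of the genotypes numbered 7 (39 without the term), 7 lower (37) and 0 higher (2), with 3 in WT (13), 13 in mpk6 (23) and 1 in MPK6ox (23), and 1 member was called between MPK6ox and WT roots (0). The added term shares its variation with the treatment, and the median standard error rose to 0.35, against 0.16. Array weights gave 11 calls in mpk6 roots. Members higher in roots numbered 4 with the organs fitted separately and 1 without MPK6ox, also added after seeing the data. AT2G18980 was the 1 member called between MPK6ox and WT shoots under the replicate block, the filter on dim probe sets, quantile normalization, median centring, the trend and robust setting and array weights. The rule gave 106 members at -0.6, 39 at -0.8 and 18 at -1.

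Leaving out 1 array at a time gave 37 to 39 root calls in the mean of the genotypes, 6 to 15 in WT, 11 to 25 in mpk6, 13 to 24 in MPK6ox, 47 to 51 organ calls, 0 to 1 between mpk6 and WT roots and between MPK6ox and WT in either organ, and 28 to 83 members by the rule. No root or organ call changed direction under any alternative. Of the 39 root calls 5 were kept under all alternatives, and of the 51 organ calls 47.

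Same-numbered arrays deviated together in most group pairs but not in all: their deviations correlated at -0.03 to 0.67 (median 0.302), over 0.1 in 55 of 66 pairs. The labels give no shared source for a number, so the samples were not treated as paired. With the replicate block 22 members were called in WT roots (13 without it), 28 in mpk6 roots, 31 in MPK6ox roots and 41 in the mean of the genotypes.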
